A study of Homo sapiens with 4 samples.

Results

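The secreted epithelial defence genes described here are LCN2, TCN1, LYZ, CD14, PIGR, SLPI, WFDC2 and LTF, 8 of the 26255 gene symbols in the deposited table. They were taken by symbol, and the set was chosen by measured values: LCN2 and TCN1 were low in one culture library, and LYZ and CD14 were low in one tumor library. All 8 symbols were found, and 6 of them reached 1 scaled count in at least one library, while LTF and WFDC2 stayed at or near 0 throughout. The name therefore applies in these cells to 6 genes at most, and CD14 and PIGR among them are membrane receptors with a shed form rather than plain secreted proteins.

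Mucosal epithelium guards its surface with secreted proteins that starve, digest or bind microbes and that protect the tissue from neutrophil proteases. Lipocalin-2 (LCN2) captures bacterial iron carriers, lactoferrin (LTF) binds iron itself, and haptocorrin (TCN1) binds vitamin B12. Lysozyme (LYZ) cuts bacterial cell walls, SLPI inhibits neutrophil elastase, WFDC2 carries the same type of whey acidic protein domain, CD14 presents bacterial lipopolysaccharide to TLR4, and PIGR carries polymeric immunoglobulin A across the epithelium. In the airway most of these genes belong to secretory and glandular cells, and several, CD14 among them, are made by neutrophils or monocytes.

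The study used A549, an established human lung adenocarcinoma line, in 4 libraries with 1 library per group. The acinar tumor and the solid tumor libraries came from gland-like and sheet-like areas of A549 xenografts in immunodeficient mice, cut out by laser microdissection. The mix culture and the single culture libraries came from GFP-labelled A549 cells sorted out of 3D colonies, read here as grown with and without cancer-associated fibroblasts (CAFs), because the labels do not spell out the mix. All groups share the A549 line, and no other genotype or agent is named. The labels do not say whether both tumor areas came from the same animal, nor where the CAFs came from. A single library stands for each group, so every difference is one between libraries, without a check by replicates and without a p-value.

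Levels are scaled counts, the deposited signal divided by one constant for all libraries. They are not divided by gene length, so they compare one gene across libraries and not genes with each other. Estimated depth ran from about 6630000 fragments in the acinar tumor to 12180000 in the mix culture, and the limit that 3 fragments set ran from 0.242 to 0.465 scaled counts. Intervals are 95% and cover counting error only. KRT8, an epithelial keratin gene with fractional fragments, was at 4507 and 4061 scaled counts in the acinar and solid tumor. In the mix and single culture it was at 2543 and 2451. KRT19 differed more, at 818 and 607 in the acinar and solid tumor and at 15.1 and 33.4 in the mix and single culture. Of 9 measured epithelial markers, 7 were past 2-fold higher in the solid tumor than in the single culture and none lower. Among all genes 15.8% were higher and 13.2% lower. For mix over single culture the median log2 ratio of these 9 markers was -0.74, with 6 below 0 and 3 above. KRT7 was higher in the mix culture, at 899 against 473 scaled counts. The 10 listed epithelial markers summed to 12737 and 11022 in the acinar and solid tumor. In the mix and single culture they summed to 5324 and 4864. Because these are bulk samples, fewer expressing cells and less RNA per cell cannot be told apart.

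LCN2 and TCN1 were both low in the mix culture, the values that chose them, and the 250 bases before their start sites are shown so that both can be set side by side. They are from RefSeq on GRCh38.p14, LCN2 at chr9:128149203-128149452 on the plus strand and TCN1 at chr11:59866488-59866737 on the minus strand, both 5′ to 3′ along the gene. Capitals mark matches, on either strand, to 3 patterns.
LCN2: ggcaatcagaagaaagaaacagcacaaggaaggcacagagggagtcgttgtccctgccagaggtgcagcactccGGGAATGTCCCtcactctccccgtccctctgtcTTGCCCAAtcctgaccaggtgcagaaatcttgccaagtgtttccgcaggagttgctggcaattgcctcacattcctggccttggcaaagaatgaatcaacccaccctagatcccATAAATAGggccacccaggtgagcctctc
TCN1: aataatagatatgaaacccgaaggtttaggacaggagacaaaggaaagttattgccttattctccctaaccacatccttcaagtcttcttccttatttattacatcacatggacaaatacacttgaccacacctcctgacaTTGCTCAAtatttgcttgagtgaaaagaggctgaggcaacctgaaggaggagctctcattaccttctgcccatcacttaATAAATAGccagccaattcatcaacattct
The first pattern is of the NF-κB type, GGG and CC separated by 5 bases. LCN2 held it as GGGAATGTCC from 176 to 167 bases before the start, overlapping a match on the other strand, and TCN1 did not hold it. This loose pattern occurs in 53.7% of 27305 promoters of the same length. The second, TTGCNNAA, is of the C/EBP type, after a factor family that activates acute-phase genes. It lay as TTGCCCAA from 143 to 136 bases before the LCN2 start and as TTGCTCAA from 109 to 102 bases before the TCN1 start, and 9.13% of promoters hold it. The third, ATAAATAG, resembles a TATA box and was picked after the sequences had been read. It lay from 29 to 22 bases before the LCN2 start and from 30 to 23 before the TCN1 start, and 0.974% of promoters hold it. Of the 6 members with a promoter entry, LTF also held a C/EBP-type match, from 59 to 52 bases before one of its start sites. LTF and WFDC2 held the NF-κB type as well. For CD14 and PIGR no match to the 3 patterns was found. A match describes letters and not a bound site.

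LCN2 had 485 scaled counts in the acinar tumor, 447 in the solid tumor, 1.05 in the mix culture and 9.15 in the single culture, from 3126, 3195, 13 and 103 estimated fragments. Both tumors were far above both cultures, and the mix culture was lowest. LCN2 was 8.75-fold lower in the mix than in the single culture (95% interval 4.89 to 17.0). Between the tumors it was 1.08-fold higher in the acinar one (1.03 to 1.14), a difference close to the counting error. The acinar tumor stood 463-fold above the mix culture (270.4 to 871) and the solid tumor 48.8-fold above the single culture (40.1 to 60.0).

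TCN1 followed the same order, at 480 scaled counts in the acinar tumor, 474 in the solid tumor, 7.17 in the mix culture and 39.5 in the single culture. Its 2 tumor values did not differ beyond counting error (fold 1.01, 0.965 to 1.06). In the mix culture TCN1 was 5.51-fold lower than in the single culture (4.38 to 6.99). With a pseudocount of 1 scaled count, both genes had a log2 ratio of -2.31 for mix over single culture, although their plain folds differed. The acinar tumor was 67.0-fold above the mix culture for TCN1 (54.3 to 83.7), and the solid tumor lay above the single culture by a log2 ratio of 3.55, with a fold interval of 10.9 to 13.3.

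LTF, the iron-binding relative of transferrin, gave 0 fragments in the acinar tumor, 4 in the solid tumor, 0 in the mix culture and 5 in the single culture. The zeros allow up to 0.465 scaled counts in the acinar tumor and 0.242 in the mix culture, beside 0.559 in the solid tumor and 0.444 in the single culture. The fold interval held 1 for the acinar against the solid tumor, and for the mix against the single culture it ran from 0 to 0.989, just short of 1. LTF was below the filter of 1 scaled count in all libraries and enters no count past 2-fold.

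**Figure D1:**
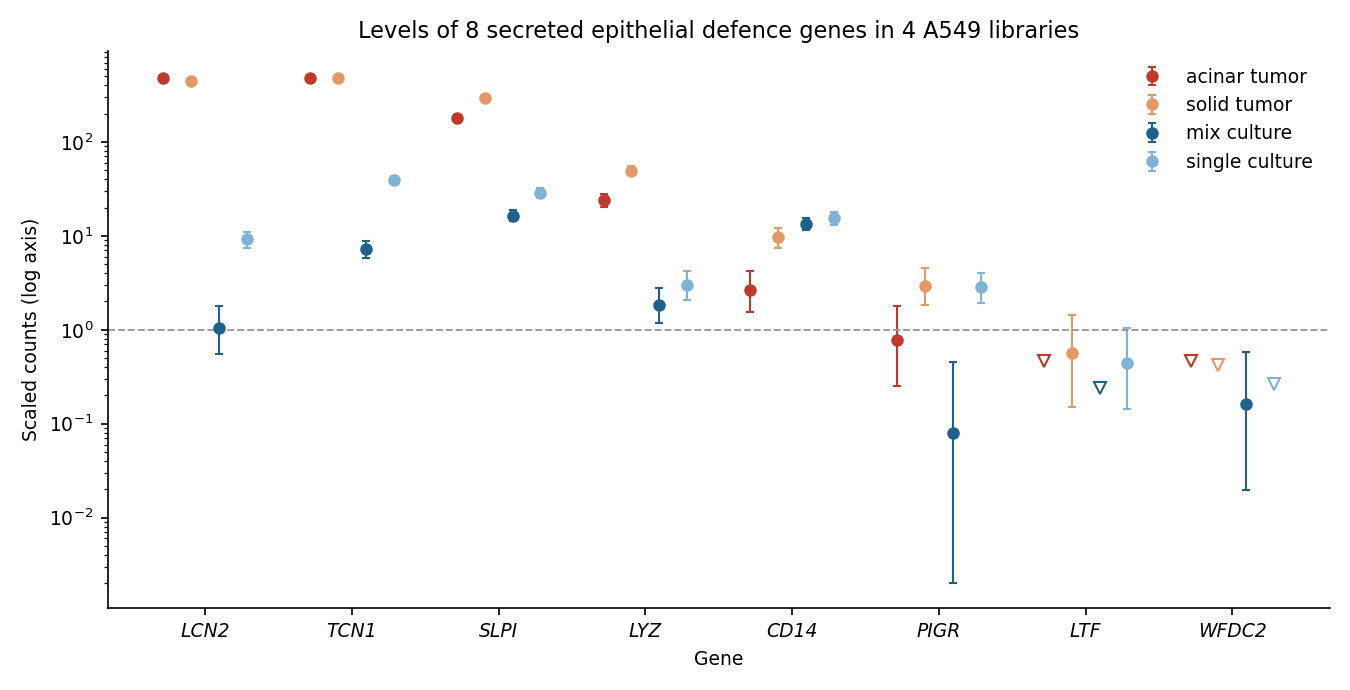
Scaled counts (log axis) of the 8 genes in the acinar tumor, solid tumor, mix culture and single culture libraries, 1 library per point; bars are exact 95% Poisson intervals of counting error, open triangles mark the limit of 3 fragments where the gene was at 0, and the dashed line is the filter at 1 scaled count. LCN2, TCN1, SLPI and LYZ lie higher in both tumors than in both cultures, CD14 lies higher in both cultures, and LTF and WFDC2 lie below the dashed line.

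SLPI, the elastase inhibitor of airway secretions, had 179 scaled counts in the acinar tumor, 297 in the solid tumor, 16.4 in the mix culture and 28.6 in the single culture. All 4 values were separated beyond counting error, in the order solid tumor, acinar tumor, single culture, mix culture. SLPI was 1.65-fold lower in the acinar than in the solid tumor (1.54 to 1.78) and 1.74-fold lower in the mix than in the single culture (1.46 to 2.09), short of 2-fold in both. The solid tumor was 10.4-fold above the single culture (9.21 to 11.7), and the acinar tumor 10.9-fold above the mix culture (9.40 to 12.7).

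WFDC2, on chromosome 20 like SLPI, gave 2 fragments in the mix culture and none in the other 3 libraries. These zeros allow levels of up to 0.465 scaled counts in the acinar tumor, 0.420 in the solid tumor and 0.267 in the single culture. No difference of WFDC2 between libraries can be read from so few fragments.

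LYZ had 23.9 scaled counts in the acinar tumor, 49.4 in the solid tumor, 1.85 in the mix culture and 3.02 in the single culture. It was 2.07-fold lower in the acinar than in the solid tumor (1.71 to 2.51), just past 2-fold. The 2 cultures, with 23 and 34 fragments in the mix and single culture, did not differ beyond counting error (mix 1.63-fold lower, 0.934 to 2.90). The solid tumor was 16.3-fold above the single culture (11.5 to 24.0) and the acinar tumor 12.9-fold above the mix culture (8.29 to 20.9).

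CD14, the lipopolysaccharide co-receptor, ran the other way between settings, at 2.64 scaled counts in the acinar tumor, 9.65 in the solid tumor, 13.4 in the mix culture and 15.4 in the single culture. The acinar tumor was lowest, and the cultures did not differ beyond counting error (mix 1.15-fold lower, 0.924 to 1.43). CD14 was 3.66-fold lower in the acinar than in the solid tumor (2.13 to 6.64), on 17 and 69 fragments in the acinar and solid tumor. It was 5.07-fold lower in the acinar tumor than in the mix culture (3.07 to 8.91) and 1.59-fold lower in the solid tumor than in the single culture (1.20 to 2.14). CD14 was the only one of the 8 genes with both culture values above both tumor values beyond counting error.

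PIGR was low in all 4 libraries, at 0.775 scaled counts in the acinar tumor, 2.94 in the solid tumor, 0.0805 in the mix culture and 2.84 in the single culture, from 5, 21, 1 and 32 fragments. The solid tumor and the single culture did not differ beyond counting error (fold 1.03, 0.566 to 1.85), whereas the acinar tumor lay below both. PIGR was 3.79-fold lower in the acinar than in the solid tumor (1.39 to 12.9). With 1 fragment in the mix culture, its ratio to the single culture was 35.3-fold lower with an interval of 5.90 to 1438.

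Together, 3 of the 6 genes that passed the filter were at least 2-fold lower in the acinar than in the solid tumor (LYZ, CD14 and PIGR) and none was at least 2-fold higher. Among all 13979 genes 2.55% were at least 2-fold lower and 1.98% higher. In the mix against the single culture, LCN2, TCN1 and PIGR were past 2-fold lower, again 3 of 6 with none higher, where 1.74% of 13485 genes were lower and 0.682% higher. The genes were chosen on these same contrasts, so the counts describe them and support nothing. PIGR passed the filter only through the library where it was higher. The medians of the 6 genes were -0.87 for acinar over solid tumor and -1.30 for mix over single culture, beside 0.01 for all genes in each comparison. All 3 tumor calls were lost with a pseudocount of 5 scaled counts, where the log2 ratio of LYZ was -0.91, that of CD14 -0.94 and that of PIGR -0.46. In the cultures that pseudocount left LCN2 at -1.23 and TCN1 at -1.87 and put PIGR at -0.63.

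Setting the tumors against the cultures gives larger differences, which also include microdissected tissue against sorted cells. In the solid tumor against the single culture, 4 of 6 genes were past 2-fold higher (LCN2, TCN1, LYZ and SLPI) and none lower, where 15.8% of 14237 genes were higher and 13.2% lower. In the acinar tumor against the mix culture, the same 4 of 5 genes were higher and CD14 lower, where 16.7% of 14082 genes were higher and 14.3% lower. These comparisons share their libraries with the first 2 and are no independent evidence. Growth in the animal, tissue handling and cell sorting cannot be told apart here.

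**Figure D2:**
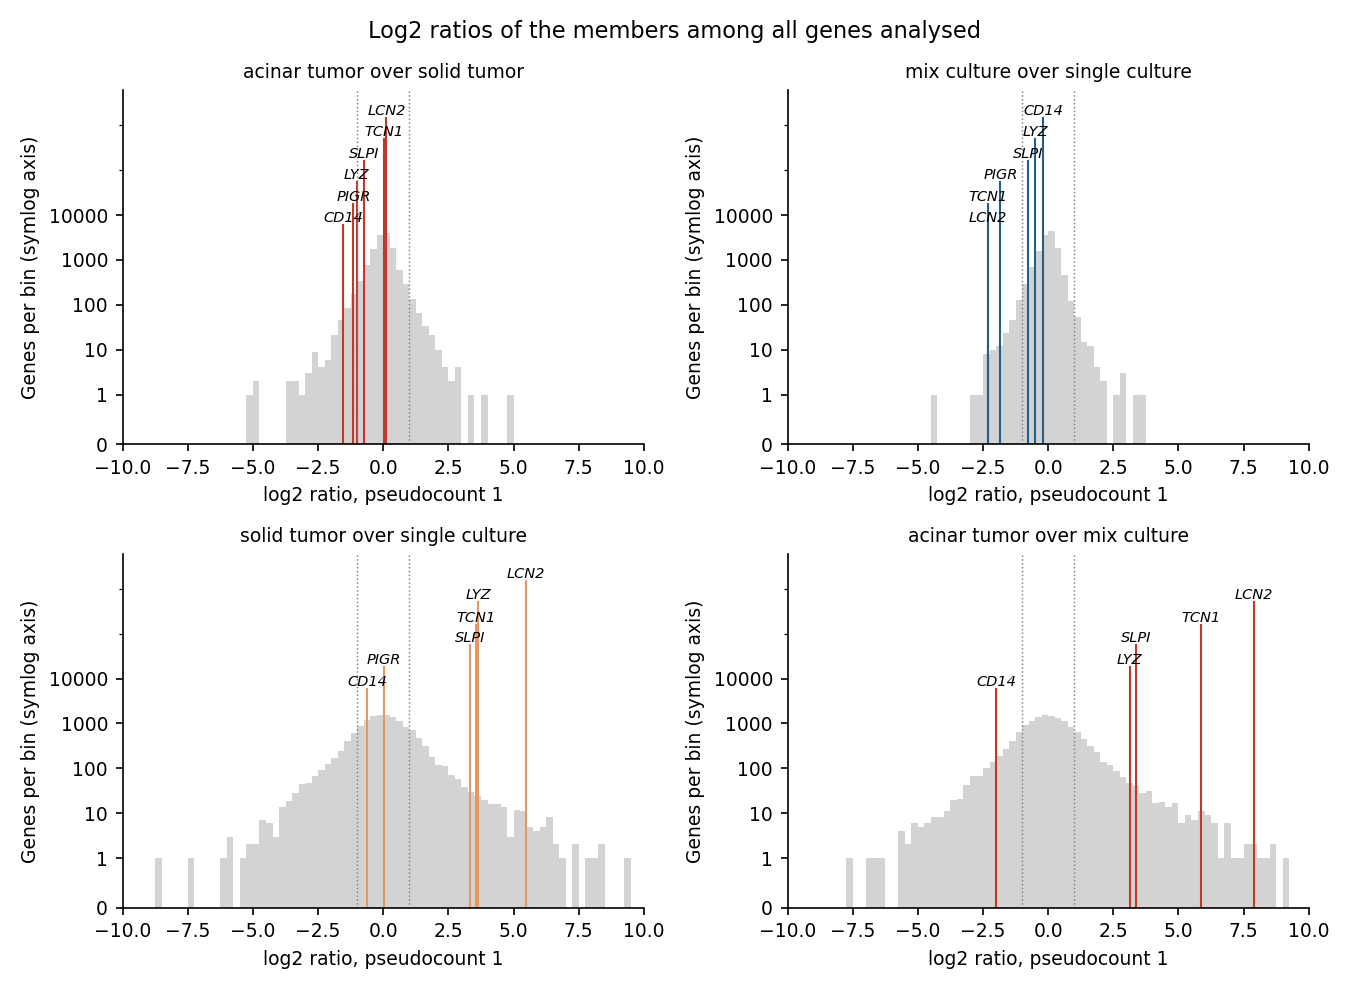
Log2 ratios (pseudocount of 1 scaled count) of all genes analysed as gray histograms (bins on the x axis, genes per bin on a symlog y axis) in 4 pairs of libraries, with the defence genes that passed the filter as named lines whose height carries no value; dotted lines mark 2-fold. LCN2 and TCN1 coincide at -2.31 for mix over single culture and lie at 0.12 and 0.02 for acinar over solid tumor.

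Per kilobase of the GENCODE 29 principal transcript, the order of genes within a library differed between settings. LCN2 led in the acinar and solid tumor, at 572 and 527 scaled counts per kilobase, and ranked 4 in the mix and 3 in the single culture, at 1.23 and 10.8. SLPI led in the mix and single culture, at 27.6 and 48.0 scaled counts per kilobase. The 8 genes summed to 0.114% of the signal in the acinar tumor, 0.126% in the solid tumor, 0.00409% in the mix culture and 0.0102% in the single culture.

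Profiles over the 4 libraries were compared among 11945 genes by Euclidean distance between centred log2 values, with a pseudocount of 1 scaled count. Nearest to LCN2 was CEACAM6, an adhesion gene of mucosal tumors, at a distance of 0.54, with 11712 and 8586 scaled counts in the acinar and solid tumor and 28.7 and 166 in the mix and single culture. Its fragments were not whole in all libraries, and its level is uncertain because near-identical CEACAM genes can share reads. MUC16, a membrane mucin gene, followed at 0.94 and TSPAN1 at 0.96. TCN1 lay nearest to the drug-metabolising CYP3A5 (0.50), the glutathione peroxidase gene GPX2 (0.52) and TSPAN8 (0.58). Nearest to both LYZ (0.21) and SLPI (0.23) was ZG16B, which encodes a secreted lectin-like protein. ZG16B was at 11.6 and 19.9 scaled counts in the acinar and solid tumor and at 0.322 and 0.800 in the mix and single culture. Next to LYZ came ZMAT1 (0.28) and CATSPERB (0.29), and next to SLPI came VIL1 (0.27), the villin gene of brush borders, and SEMA3B (0.30). MUC16, ZG16B, ZMAT1, CATSPERB and VIL1 were below 1 scaled count in the mix culture. The pseudocount shrinks differences there, so the nearness of these genes depends on it. VIL1 was at 14.0 in the acinar tumor and 0.161 in the mix culture, beside 179 and 16.4 for SLPI. CD14 lay nearest to IGFBP3 (0.19), which binds insulin-like growth factors, SRPX2 (0.20) and LY6E (0.29). IGFBP3 was at 907 and 2686 scaled counts in the acinar and solid tumor and at 3975 and 4788 in the mix and single culture, with fragments that were not whole throughout.

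Partners and relatives of the 8 genes were read from 6 lists. For each list the shares of all genes past 2-fold stand beside its counts. These were 2.55% lower and 1.98% higher for the acinar against the solid tumor. For the mix against the single culture they were 1.74% lower and 0.682% higher. Of 11 measured iron and cobalamin genes, 1 was past 2-fold lower in the acinar than in the solid tumor and none higher (median -0.59), and of 8 measured in the cultures 2 were lower in the mix culture and none higher (median -0.20). TF, the iron carrier transferrin, was at 2.64 against 20.3 scaled counts in the acinar and solid tumor, 7.69-fold lower in the acinar one (4.64 to 13.6). In the mix against the single culture TF was at 7.41 against 31.6, 4.27-fold lower (3.39 to 5.43). TCN2, which delivers vitamin B12 to tissues, was at 22.8 against 60.4 scaled counts in the mix and single culture, 2.65-fold lower (2.31 to 3.06), and at 68.4 against 82.6 in the acinar and solid tumor. CD320, the receptor for that complex, was within 2-fold in both pairs, at 38.1 against 41.4 scaled counts in the tumors and 92.7 against 107 in the cultures. SLC22A17, a proposed lipocalin-2 receptor, was at 6.36 against 10.5 in the acinar and solid tumor and at 20.2 against 22.8 in the mix and single culture.

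Among antibacterial enzymes and peptides, 2 of 11 measured genes were past 2-fold lower in the acinar tumor and none higher (median -0.43). In the mix culture 2 of 6 were lower and none higher (median -0.78). Both of the tumor calls, BPIFB1 and REG4, and 1 of the culture calls, SCGB1A1, passed the filter through the library where they were higher, so that these counts support nothing. Each count was 1 with a pseudocount or a filter of 5 scaled counts. BPIFB1, a secreted airway protein, had 0.155 scaled counts in the acinar tumor from a single fragment, against 6.29 in the solid tumor, 40.6-fold lower with an interval of 6.92 to 1638. DMBT1, a scavenger protein that clumps bacteria, was at 1489 scaled counts in the mix and 3826 in the single culture, 2.57-fold lower in the mix, with fractional fragments and so no interval. RNASE4 and ANG, overlapping ribonuclease genes whose fragments cannot be firmly separated, were below 2-fold in both pairs. RNASE4 was at 205 against 346 scaled counts in the acinar and solid tumor and at 58.4 against 104 in the mix and single culture.

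Secreted protease inhibitors went both ways in the tumors, with 2 of 12 measured genes past 2-fold higher and 2 lower (median 0.07), of which SERPINB3 passed the filter through the acinar tumor alone, and none of 8 was past 2-fold in the cultures (median -0.38). SERPINA1, the main plasma inhibitor of neutrophil elastase, was at 33.6 against 113 scaled counts in the acinar and solid tumor, 3.35-fold lower (2.88 to 3.91). CST1, a salivary cystatin with near-identical relatives, was at 279 against 692, 2.48-fold lower (2.35 to 2.62). SPINK1, a trypsin inhibitor, was 2.25-fold higher in the acinar tumor, at 50.7 against 22.5 scaled counts (1.86 to 2.74). PI3, the elastase inhibitor elafin and closest partner of SLPI, was at 3.26 against 2.24 in the acinar and solid tumor and at 0.161 against 0 in the mix and single culture.

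Lipopolysaccharide and bacterial sensing genes had 2 of 21 measured past 2-fold higher in the acinar tumor and none lower (median 0.11), and in the mix culture 1 of 19 higher and 3 lower (median -0.12). Of those 4 culture calls, TLR3 and TICAM2 passed the filter through the library where they were higher, and 1 call was left with a pseudocount or a filter of 5 scaled counts. IRAK2, a kinase of Toll-like receptor signaling, was at 37.1 against 11.0 scaled counts in the acinar and solid tumor, 3.35-fold higher (2.59 to 4.38). TNFAIP3, which limits NF-κB activity, was 2.43-fold higher at 80.0 against 32.9 (2.08 to 2.85). LBP, which hands lipopolysaccharide to CD14, was at 17.5 against 41.6 scaled counts in the mix and single culture, 2.38-fold lower (2.02 to 2.81), and at 1.55 against 3.64 in the acinar and solid tumor. The receptor gene TLR4 was at 16.4 against 14.0 in the tumors and 7.41 against 11.1 in the cultures, and its cofactor gene LY96 was below 1 scaled count in all 4 libraries.

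None of 7 measured immunoglobulin transport and B cell factor genes was past 2-fold in either pair (medians -0.11 and -0.08), and JCHAIN, the joining chain that PIGR binds, stayed below 1 scaled count. Known regulators had 1 of 26 past 2-fold higher and none lower in the acinar tumor (median -0.06), namely RELB, an NF-κB subunit, at 52.4 against 19.9 scaled counts (2.64-fold, 2.16 to 3.23). In the mix culture 1 of 25 was lower and none higher (median -0.02). This was EHF, an epithelial ETS factor, at 29.1 against 62.9 scaled counts, 2.16-fold lower (1.90 to 2.46). Counts of 1 of 26 and 1 of 25 are near the shares of all genes and say nothing about the list. The count of regulators past 2-fold in the cultures was 0 with a pseudocount of 5 scaled counts and 2 with libraries scaled to the same total. ELF3, a relative of EHF, was at 70.4 against 141 scaled counts in the mix and single culture, a log2 ratio of -0.99. In the acinar and solid tumor ELF3 was at 687 against 746. NFKBIZ and CEBPB, which act on the LCN2 promoter in other epithelia, were within 2-fold in both pairs. NFKBIZ was at 15.1 against 20.5 scaled counts in the mix and single culture, and CEBPB at 157 against 111 with fractional fragments.

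**Figure D3:**
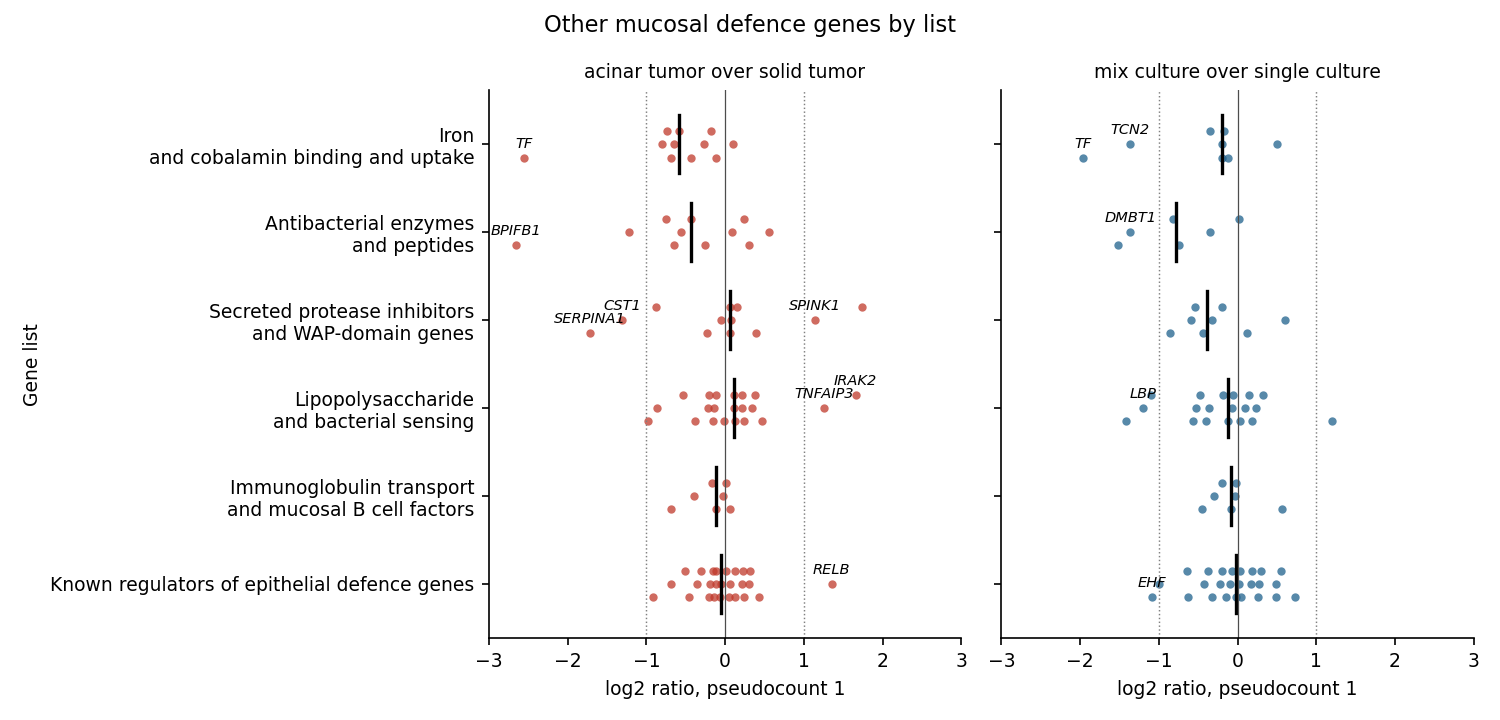
Log2 ratios (x axis, pseudocount of 1 scaled count) of single genes in 6 lists of mucosal defence genes (rows) for acinar over solid tumor (left) and mix over single culture (right); black bars are list medians, dotted lines mark 2-fold, and names are given for genes past 2-fold at 5 scaled counts or more. TF lies far left in both panels, at -2.55 and -1.96, while RELB lies right in the tumors and EHF left in the cultures.

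Since LCN2, TCN1, LTF, LYZ and CD14 are also leukocyte genes, markers of other cells were read beside them. Of 16 neutrophil markers 2 reached 1 scaled count in any library, and 8 were at 0 in all, among them MPO, CTSG and FCGR3B. Their sums were 2.33 and 2.80 scaled counts in the acinar and solid tumor and 0.966 and 2.93 in the mix and single culture. Of 18 monocyte and macrophage markers 7 reached 1 scaled count somewhere, with sums of 121 and 187 in the acinar and solid tumor and 48.8 and 47.9 in the mix and single culture. CD68, a lysosomal gene, made up 113 and 175 of the tumor sums. FCGR1A, MRC1 and AIF1 were at 0 in all libraries, and PTPRC did not exceed 1.40. HLA-DRA, CD74 and LAPTM5 were higher in both cultures than in both tumors, as CD14 was. HLA-DRA was at 0 and 0.839 in the acinar and solid tumor and at 7.005 and 8.53 in the mix and single culture. CD74 was at 0.62 and 3.496 in the acinar and solid tumor and at 10.06 and 6.93 in the mix and single culture. CD68, ITGAM, SPI1 and PTPRC were higher in both tumors. A link of these markers to CD14 was not tested. Host leukocytes would be mouse cells, and the values stand under human symbols, so host reads in these values were not tested. Fibroblast markers (7 of 12 at 1 or more somewhere, POSTN at 0 in all) summed to 96.1 and 59.9 in the acinar and solid tumor and to 47.2 and 44.9 in the mix and single culture. LUM made up 55.4 and 19.6 of the acinar and solid tumor sums, and COL1A1 made up 30.7 and 32.3. Airway secretory markers, with 5 of 9 detected and BPIFA1 at 0 in all, summed to 7580 against 17213 in the acinar and solid tumor. In the mix and single culture they summed to 4854 against 9485. Nearly all of these sums came from MUC5AC and MUC5B. Of the members, LYZ, CD14, PIGR and SLPI were also lower in the acinar tumor, and LCN2 and TCN1 were not. All 6 members that passed the filter had ratios below 0 for mix over single culture, those of LYZ and CD14 within counting error. The part of a change in secretory markers in the results was not tested.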

How the data were processed

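RNA of A549 cells was sequenced in 4 libraries from TruSeq RNA kits, 1 per group, per the labels' protocols; groups follow the sample titles. The build hg19 and the tools Cuffdiff 2.2.1, SAMtools 1.0, TopHat2 2.0.13 and Bowtie2 2.2.3 appear in the submitters' processing notes, with no role or order; annotation, filters and strand use are not stated there. For each gene and library the authors deposited 1 signal value, called raw signal per the file headers. In each library 90.0% to 91.2% of values above 0 were whole multiples, within 0.05 fragments, of one step (0.720 to 1.39), taken as 1 fragment. The rest were fractional, so no count model was fitted.

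Values were divided by 8.94, which sets the mean library total to 1000000, giving scaled counts. Log2 ratios used a pseudocount of 1 and genes at 1 or more in either library, which understates differences of low genes. Folds are plain ratios with exact conditional binomial intervals, and levels have exact Poisson intervals (Python 3.11.15, scipy 1.17.1); fragments are not independent molecules. Named genes are all 8 members, up to 4 genes per list, direction and comparison past 2-fold at 5 scaled counts or more, and the 3 nearest profiles per member at 5 or more; other genes named were chosen after their values were seen. Members and lists were chosen with earlier results of these data known; all 231 list entries matched, 2 through another symbol. Promoter sequences are RefSeq's (GRCh38.p14), found for 6 of 8 members, and carry no hg19 coordinates. Pseudocount, filter, scaling and whole fragments were varied.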

Additional observations from a re-analysis of the deposited data

How the results depend on the processing

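Of the member counts past 2-fold, the one that moved was acinar against solid tumor, to 0 of 6 with a pseudocount of 5 scaled counts. For the other 3 pairs of libraries, counts of members stayed within 1.5 times of those reported under all 7 alternatives. Removing the filter or keeping only whole fragments could not change these counts. Counts over all genes depended on the pseudocount. With one of 0.1 they were 478 higher and 692 lower in the acinar against the solid tumor, and 192 and 522 in the mix against the single culture. With one of 5 they were 114 and 101, 33 and 73, then 1289 and 1183 in the solid tumor against the single culture and 1427 and 1313 in the acinar tumor against the mix culture. A filter of 5 scaled counts left 203 lower in the acinar tumor. A larger pseudocount shrinks ratios of low genes by its construction. Of 157 member log2 ratios under alternatives, 139 stayed within the counting interval of the plain fold or unchanged, 18 moved and none past 2-fold changed sign. A changed filter or the choice of whole fragments cannot alter a member's ratio, so part of the 139 was fixed in advance. Some ratios with a pseudocount of 1 lie outside the interval of the plain fold, so small shifts also counted as moved. LCN2 in the acinar tumor over the mix culture, for example, went from 7.891 to 7.875 with median-of-ratios scaling. Of 84 list counts under alternatives 15 moved by more than 1.5 times, with pseudocounts, a filter of 5, equal totals or only whole fragments, and 6 of 84 list medians moved to 0 without a filter. No paired analysis was possible because each group has 1 library. PIGR, LTF and WFDC2 are limited by depth, with 32 fragments or fewer in any library.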

Other observations

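Other secreted protease inhibitors were also set between tumors and cultures, again as differences between single libraries. Of 11 measured in the solid tumor against the single culture, 9 were past 2-fold higher and none lower (median 1.69), where 15.8% of all genes were higher and 13.2% lower. Of 10 in the acinar tumor against the mix culture, 8 were higher and none lower (median 2.03), where 16.7% of all genes were higher and 14.3% lower. The filter fixed part of these counts, since PI3, CST4 and SPINK1 in the first pair, and PI3, CST1 and SPINK1 in the second, passed it through the tumor library alone. CST1 was at 279 scaled counts in the acinar and 692 in the solid tumor, against 0.483 in the mix and 1.24 in the single culture. SPINK1 was at 50.7 and 22.5 in the acinar and solid tumor, against 0 in the mix and 0.178 in the single culture. SERPINA3, an acute-phase antichymotrypsin, was at 218 and 208 in the acinar and solid tumor, against 18.1 in the mix and 26.8 in the single culture.

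DMBT1 had the opposite pattern, at 11.2 and 8.81 scaled counts in the acinar and solid tumor, against 1489 in the mix and 3826 in the single culture, with fractional fragments. LBP was likewise low in the acinar and solid tumor, at 1.55 and 3.64, against 17.5 and 41.6 in the mix and single culture. The iron uptake receptor gene TFRC was at 48.8 and 45.3 in the acinar and solid tumor, against 250 in the mix and 287 in the single culture.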
